A study of Mus musculus with 8 samples.

Results

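The genes described here are the 10 that encode the muscle acetylcholine receptor and the core machinery that assembles the nerve-muscle junction: the receptor subunit genes Chrna1, Chrnb1, Chrnd, Chrne and Chrng, and the assembly genes Agrn, Lrp4, Musk, Dok7 and Rapsn. They were taken by symbol from the deposited table, and all 10 were present among its 53819 gene symbols. RNA came from the quadriceps of wild-type C57BL/6J mice that were 8 weeks old at the start, as 1 library per mouse. The tumor group was 4 mice that received 500000 cells of the head and neck squamous cell carcinoma line B0092 under the skin of the neck, and the control group was 4 mice that received the PBS vehicle alone. Muscle was taken on day 36, when weight loss had come to about 10%, so the comparison is of muscle in cachexia at 1 late time. The tumor model is 1 cell line, and the sex of the mice is not given in the labels used here.

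At the nerve-muscle junction, acetylcholine released by the motor nerve opens a pentameric cation channel packed on the muscle side. The nerve deposits agrin (Agrn), which binds LRP4 and so activates the receptor tyrosine kinase MuSK. The adaptor DOK7 binds and sustains MuSK, and the scaffold rapsyn (Rapsn) clusters the receptors under the nerve ending. The channel holds alpha (Chrna1), beta (Chrnb1) and delta (Chrnd) subunits throughout life, whereas the gamma subunit (Chrng) of fetal muscle is replaced by epsilon (Chrne) in the adult. In innervated adult fibres several of these genes are transcribed mainly by the nuclei beneath the junction. Loss of the nerve lets nuclei along the whole fibre transcribe several of the receptor genes again. Myogenic factors such as myogenin and MyoD bind E-boxes in several of these promoters, and the N-box, bound by the ETS factor GABP, restricts some of them to junction nuclei.

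The promoter windows of 5 members are shown, namely Chrnb1 and Dok7, which passed the test below, and Chrna1, Chrne and Chrng, which did not. Each RefSeq window (build GRCm38.p6) runs from 250 bases before to 50 after the annotated start, on the strand of the gene, and capitals mark E-boxes (CANNTG) and N-boxes (CCGGAA on either strand). Such windows were found for 7 of the 10 members, and not for Chrnd, Rapsn and Lrp4.
Chrna1 (chr2:73580289-73580588, minus strand): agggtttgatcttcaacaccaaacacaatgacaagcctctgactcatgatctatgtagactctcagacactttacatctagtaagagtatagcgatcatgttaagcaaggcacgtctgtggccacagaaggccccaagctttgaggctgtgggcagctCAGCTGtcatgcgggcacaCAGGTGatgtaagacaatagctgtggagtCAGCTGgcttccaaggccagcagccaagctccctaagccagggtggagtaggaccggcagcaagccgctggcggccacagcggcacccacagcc
Chrnb1 (chr11:69795888-69796187, minus strand): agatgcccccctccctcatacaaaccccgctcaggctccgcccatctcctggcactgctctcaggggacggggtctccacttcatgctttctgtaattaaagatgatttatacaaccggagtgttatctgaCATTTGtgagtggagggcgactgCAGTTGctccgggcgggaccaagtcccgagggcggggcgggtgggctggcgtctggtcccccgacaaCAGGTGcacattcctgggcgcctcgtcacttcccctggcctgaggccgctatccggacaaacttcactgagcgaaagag
Chrne (chr11:70619145-70619444, minus strand): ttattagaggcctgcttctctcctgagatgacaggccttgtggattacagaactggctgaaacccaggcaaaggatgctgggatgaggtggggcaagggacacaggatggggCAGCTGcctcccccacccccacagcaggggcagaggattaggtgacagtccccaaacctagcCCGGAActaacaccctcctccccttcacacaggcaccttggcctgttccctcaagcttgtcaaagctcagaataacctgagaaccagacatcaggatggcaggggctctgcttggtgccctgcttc
Chrng (chr1:87205561-87205860, plus strand): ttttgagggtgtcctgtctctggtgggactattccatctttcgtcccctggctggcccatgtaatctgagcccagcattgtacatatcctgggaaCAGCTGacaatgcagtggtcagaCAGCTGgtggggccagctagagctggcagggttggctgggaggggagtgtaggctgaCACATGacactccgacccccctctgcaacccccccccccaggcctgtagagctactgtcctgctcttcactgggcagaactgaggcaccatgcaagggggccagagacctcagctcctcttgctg
Dok7 (chr5:35056516-35056815, plus strand): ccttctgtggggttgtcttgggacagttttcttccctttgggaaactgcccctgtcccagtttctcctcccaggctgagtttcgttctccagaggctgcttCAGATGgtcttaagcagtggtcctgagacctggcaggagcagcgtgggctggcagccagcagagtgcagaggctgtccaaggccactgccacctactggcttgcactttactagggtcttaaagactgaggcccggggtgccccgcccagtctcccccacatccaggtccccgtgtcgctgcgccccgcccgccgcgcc
Chrna1 and Chrng each held 3 E-boxes, of which 2 had the letters CAGCTG. Musk, whose window is not printed, also held 3, of which 1 was CAGCTG. Chrnb1 held 3 and 0 of that form. Chrne held 1 E-box, a CAGCTG, and was the only one of these 7 members with an N-box, at position -76 from the start. Of the 2 Dok7 windows, the first held 1 E-box and the second 0, and of the 2 Agrn windows the first held 0 and the second 1. Every E-box pattern reads the same on both strands, and each CAGCTG is also counted as a CANNTG. Over all 32851 windows of this length, 72.3% held a CANNTG, 16.3% a CAGCTG and 14.9% a CCGGAA. All members are tested genes, and over the 13260 windows found for tested genes the shares were 64.1%, 15.7% and 26.1%. These matches describe letters and were not tested as binding sites.

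**Figure D1:**
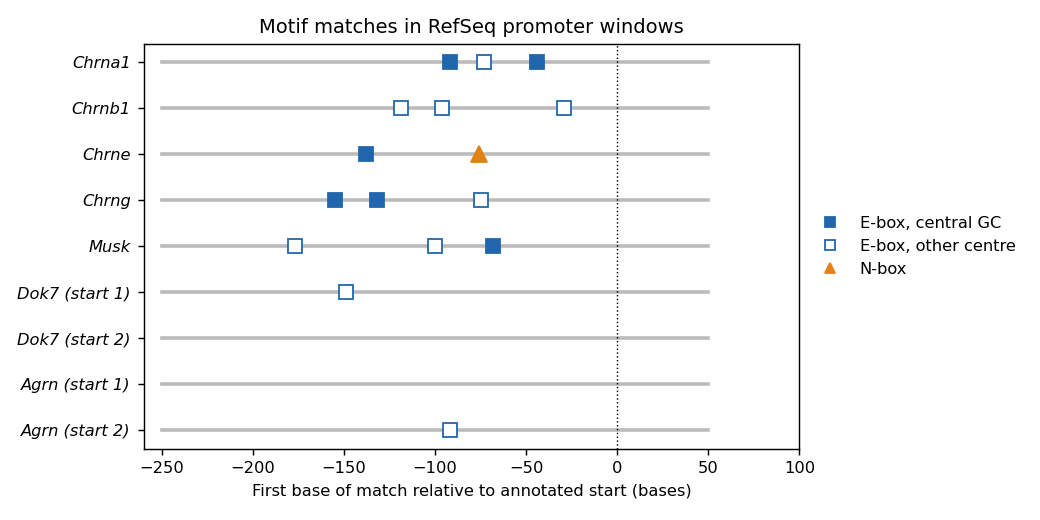
Motif matches in the 9 promoter windows of 7 members, by the distance in bases of the first base of each match from the annotated start (0, dotted line). Squares are E-boxes, filled where the centre is GC, and the triangle is the N-box. Chrna1 and Chrng carry 2 filled squares each, and Chrne carries the only triangle.

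The libraries held 28436205 to 36139462 counts, and levels below are CPM (read counts scaled to library size with TMM factors). Over the series, 2781 of 14070 tested genes (19.8%) passed the edgeR quasi-likelihood test with a Benjamini-Hochberg adjusted p below 0.05, 1552 higher (11.0%) and 1229 lower (8.73%) in tumor mice. With upper-quartile scaling the split was 1169 higher and 1547 lower. All 8 skeletal muscle fibre markers were detected, at a summed level of 98299.7 to 184624 CPM in tumor libraries and 121767 to 188175 CPM in control libraries. Of these 8, the filament gene Des rose (1.87-fold, adjusted p = 0.0212, edgeR) and the skeletal actin gene Acta1 fell (2.35-fold, adjusted p = 0.0368, edgeR), so the sum covers changes in both directions. Neither was called without tumor mouse 3 or control mice 1, 2 or 3, and Acta1 was also not called without tumor mouse 2 or control mouse 4. Fibre type set 2 libraries apart: the fast 2B myosin Myh4 made up 80.3% of adult myosin heavy chain counts in tumor mouse 2 and 95.2% to 98.9% in the other tumor mice, and 64.6% in control mouse 4 and 88.5% to 98.0% in the other controls. Tumor mouse 4 stood apart in several of the genes described here, and its scaling factor was 1.22, against 0.961 to 1.02 in the other tumor libraries and 0.896 to 1.01 in control libraries.

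Of the 10 members, Chrnb1 and Rapsn rose and Dok7 fell in tumor-bearing mice, and 7 did not pass the test. All 10 were deep enough to be tested, Chrng only just, through 3 tumor libraries and 1 control library. Called members thus made up 30% of the list, beside 19.8% of all tested genes, and the median log2 fold change of the 10 members was 0.41, against 0.00 over all tested genes. The same 3 members were the only ones whose groups did not overlap, while 25.0% of all tested genes had groups without overlap. Without tumor mouse 4, Chrnb1 was the only higher member and Dok7 and Lrp4 were lower. The log2 fold changes above 0 were then those of Chrnb1 (0.82), Chrng (0.76), Musk (0.48) and Rapsn (0.31). Those of Chrna1 (-0.40), Chrnd (-0.60), Chrne (-0.65), Dok7 (-0.67), Lrp4 (-1.35) and Agrn (-0.20) were below 0. The median of the members was therefore above 0 only with that mouse included. Without control mouse 4 and tumor mouse 2 together, Chrnb1, Rapsn and Dok7 were called, as with all libraries. Without tumor mouse 3, control mouse 1 or control mouse 2, 0 members were called by edgeR, with 3, 5 and 3 members at an unadjusted p under 0.05, in fits that called 1190, 1110 and 1373 genes in all. DESeq2 with all libraries called 3 members and limma-voom 2. Without control mouse 3 Chrnb1 alone was called, and without control mouse 4 Dok7 alone. In bulk muscle, changes in junction or junction nucleus number, in RNA from each and in RNA from other nuclei cannot be told apart. This holds for rises as well as falls.

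**Figure D2:**
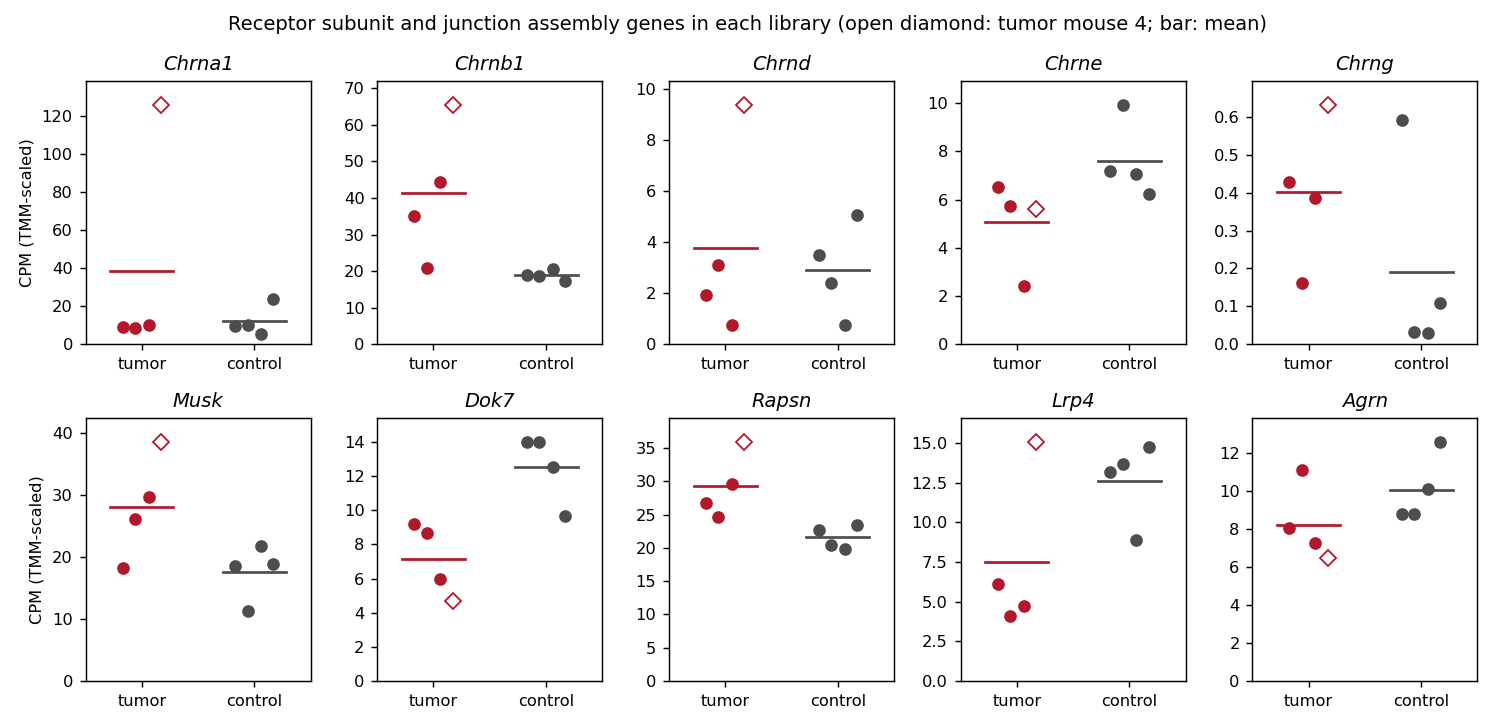
TMM-scaled CPM of each of the 10 members in the 4 tumor libraries (red) and the 4 control libraries (grey), each panel with its own axis from 0. Each point is 1 mouse, the bar is the group mean, and the open diamond is tumor mouse 4. The diamond is the highest point of 7 panels and the lowest of those of Dok7 and Agrn.

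Among the receptor subunits, Chrnb1 rose, with the smallest adjusted p of the 10 members. Chrnb1 encodes the beta subunit, which is phosphorylated on tyrosine when agrin activates MuSK. Chrnb1 lay at 35.2, 20.8, 44.4 and 65.5 CPM in tumor mice 1 to 4, against 18.9, 18.8, 20.5 and 17.3 CPM in control mice 1 to 4. The tumor values were spread widely, with tumor mouse 2 just above the highest control, while the controls lay close together. Chrnb1 averaged 41.5 ± 18.7 CPM in tumor mice and 18.9 ± 1.32 CPM in controls (SD, n = 4 each), and its log2 fold change was 1.14 ± 0.29 (SE; 2.20-fold, adjusted p = 0.0242, edgeR). Without tumor mouse 4 the rise was 1.76-fold (adjusted p = 0.0370). The call was lost without tumor mouse 3 (adjusted p = 0.0691) or control mice 1, 2 or 4 (adjusted p = 0.0720, 0.0647 and 0.0522, edgeR), with the fold between 2.14 and 2.20.

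Chrna1 encodes the alpha subunit, which carries the acetylcholine binding site, and its level was set apart in 1 mouse. Chrna1 lay at 9.09, 8.54, 10.3 and 126 CPM in tumor mice 1 to 4, against 9.78, 10.3, 5.27 and 23.7 CPM in control mice 1 to 4. Tumor mouse 4, with 4389 counts, stood 13.9-fold above the median of the other tumor mice and 5.33-fold above the next highest library, control mouse 4. Of the 14070 tested genes, 28 (0.199%) had a ratio at least as large of tumor mouse 4 to the median of the other tumor mice. The other 3 tumor mice lay within the range of the controls. The log2 fold change of Chrna1 over all libraries was 1.65 ± 0.91 (SE, adjusted p = 0.229, edgeR), and without tumor mouse 4 it was -0.40 (adjusted p = 0.542). DESeq2 gave Chrna1 no p-value, because it set the gene aside for an extreme count.

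Chrnd, the delta subunit gene, showed the same mouse at the top at a lower level. Chrnd lay at 1.94, 3.08, 0.739 and 9.36 CPM in tumor mice 1 to 4, against 3.48, 2.38, 0.752 and 5.04 CPM in control mice 1 to 4. The groups overlapped, and both the lowest and the highest of the 8 values belonged to tumor mice. The log2 fold change was 0.39 ± 0.73 (SE, adjusted p = 0.748, edgeR) with all libraries and -0.60 (adjusted p = 0.544) without tumor mouse 4. Chrnd also varied within the controls, where its order from control mouse 4 down through 1, 2 and 3 was the reverse of the order of the Myh4 share. The tumor mice did not follow that order: Chrnd lay at 9.36 CPM in tumor mouse 4 (95.2% Myh4) and 3.08 CPM in tumor mouse 2 (80.3%), and at 1.94 CPM in tumor mouse 1 (98.9%) and 0.739 CPM in tumor mouse 3 (98.5%). With the Myh4 ratio as a covariate the log2 fold change was 1.12 for Chrnd (adjusted p = 0.273) and 2.34 for Chrna1 (adjusted p = 0.115), so neither passed. The part of fibre type in these values was not tested further.

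The adult subunit gene Chrne and the fetal subunit gene Chrng did not pass the test. Chrne lay at 6.52, 5.75, 2.41 and 5.63 CPM in tumor mice 1 to 4, against 7.21, 9.92, 7.06 and 6.23 CPM in control mice 1 to 4. Only tumor mouse 1 overlapped the controls, and tumor mouse 3 was the lowest. The log2 fold change of Chrne was -0.58 ± 0.29 (SE, adjusted p = 0.186, edgeR). Chrne shares its locus with 4930544D05Rik on the opposite strand, which had 0 to 2 counts per library. Chrng was near the limit of detection, with 13, 5, 12 and 22 counts in tumor mice 1 to 4 and 17, 1, 1 and 3 counts in control mice 1 to 4. Control mouse 1 therefore lay with the tumor mice and apart from the other controls. The log2 fold change of Chrng was 1.09 ± 0.86 (SE, adjusted p = 0.399, edgeR), and it was 2.78 without control mouse 1 (adjusted p = 0.0634).

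The ratio of Chrng to Chrne within a library compares the fetal with the adult subunit and needs no scaling between libraries. Its log2 value (0.5 added to each count) was -3.88, -5.01, -2.59 and -3.13 in tumor mice 1 to 4, against -3.57, -7.65, -7.35 and -5.62 in control mice 1 to 4. It averaged -3.65 ± 1.05 in tumor mice and -6.05 ± 1.88 in controls (SD, n = 4 each), a difference of 2.39 (two-sided exact permutation p = 0.0857, where 0.0286 is the smallest this design can give). Control mouse 1 lay within the tumor range. Without it the groups did not overlap and the difference was 3.22, with an exact permutation p of 0.0286, which 4 against 3 libraries cannot go below. Control mouse 1 was the only control within the tumor range, so leaving it out separated the groups by choice. That p was therefore not read as support. Chrng remained far below Chrne in every library, at 28.2 to 160 Chrng counts per 1000 Chrne counts in tumor mice and 3.33 to 82.1 in controls.

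**Figure D3:**
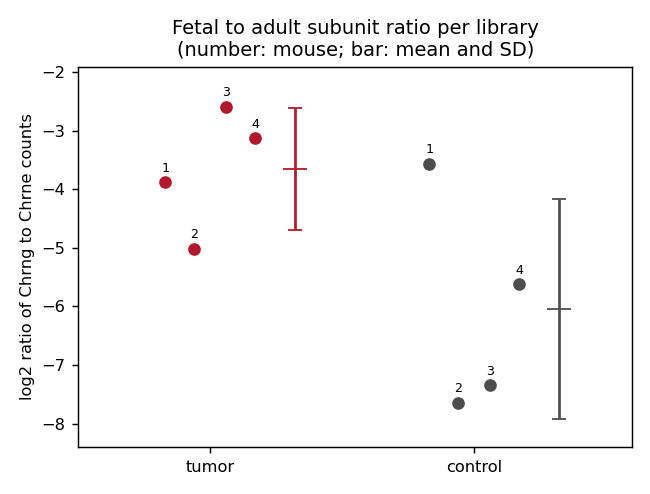
The log2 ratio of Chrng to Chrne counts in each tumor (left) and control (right) library, numbered by mouse, with the mean and SD of each group beside the points. Tumor mice lie between -5.01 and -2.59, and control mouse 1 at -3.57 lies among them while the other controls lie between -7.65 and -5.62.

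Chrnd and Chrng are neighbours on chromosome 1, with 0 protein-coding genes between them in the GENCODE M21 annotation. Summed over the 5 subunit genes, the level was 53.1, 38.4, 58.2 and 207 CPM in tumor mice 1 to 4 and 40.0, 41.4, 33.6 and 52.3 CPM in control mice 1 to 4. Tumor mouse 2 lay within the control range, tumor mice 1 and 3 just above it, and tumor mouse 4 far above it.

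Among the assembly genes, Rapsn was slightly higher and Dok7 lower in tumor mice. Rapsn, the receptor-clustering scaffold, lay at 26.8, 24.7, 29.6 and 36.0 CPM in tumor mice 1 to 4, against 22.7, 20.5, 19.9 and 23.5 CPM in control mice 1 to 4. The groups did not overlap, and the gap between them was narrow. Rapsn averaged 29.3 ± 4.90 CPM in tumor mice and 21.6 ± 1.74 CPM in controls (SD, n = 4 each), with a log2 fold change of 0.44 ± 0.14 (SE; 1.35-fold, adjusted p = 0.0499, edgeR). That call lay at the threshold and held in 3 of the 17 alternatives, with adjusted p from 0.0298 to 0.127 and a log2 fold change from 0.31 to 0.54. Rapsn is overlapped on the opposite strand by Gm13778, which had 0 to 13 counts.

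Dok7, the adaptor that keeps MuSK active, lay at 9.18, 8.67, 5.98 and 4.71 CPM in tumor mice 1 to 4, against 14.0, 14.0, 12.6 and 9.67 CPM in control mice 1 to 4. The groups did not overlap, and here tumor mouse 4 was the lowest of the 8 libraries. Dok7 averaged 7.13 ± 2.14 CPM in tumor mice and 12.6 ± 2.04 CPM in controls (SD, n = 4 each), with a log2 fold change of -0.82 ± 0.23 (SE; a 1.76-fold fall, adjusted p = 0.0338, edgeR). The call held without tumor mouse 4 (adjusted p = 0.0487) and was lost without tumor mouse 3 or control mice 1, 2 or 3 (adjusted p = 0.102, 0.0990, 0.0886 and 0.0703).

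Musk, the receptor tyrosine kinase of the junction, did not pass. Musk lay at 18.2, 26.1, 29.7 and 38.7 CPM in tumor mice 1 to 4, against 18.5, 11.3, 21.8 and 18.9 CPM in control mice 1 to 4. Tumor mice 2, 3 and 4 lay above all controls, and tumor mouse 1 lay within the control range. The log2 fold change of Musk was 0.68 ± 0.25 (SE, adjusted p = 0.0873, edgeR), and it passed without tumor mouse 1 (0.84, adjusted p = 0.0362). That was the only 1 of the 17 alternatives in which Musk passed, and the highest adjusted p among them was 0.199.

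Lrp4, the agrin receptor, lay at 6.09, 4.09, 4.75 and 15.1 CPM in tumor mice 1 to 4, against 13.2, 13.7, 8.88 and 14.7 CPM in control mice 1 to 4. Tumor mice 1, 2 and 3 lay below all controls, and tumor mouse 4 lay just above the highest control. With all libraries the log2 fold change of Lrp4 was -0.75 ± 0.39 (SE, adjusted p = 0.202, edgeR). Without tumor mouse 4 it was -1.35, a 2.55-fold difference with an adjusted p of 0.00752. That was the only 1 of the 17 alternatives in which Lrp4 passed, and the highest adjusted p among them was 0.444. Tumor mouse 4 was the only tumor mouse not below all controls, so leaving it out separated the groups by choice. That p was therefore not read as support. Agrn lay at 8.03, 11.1, 7.29 and 6.49 CPM in tumor mice 1 to 4, against 8.77, 8.80, 10.1 and 12.6 CPM in control mice 1 to 4, with overlapping groups. The log2 fold change of Agrn was -0.29 ± 0.20 (SE, adjusted p = 0.328, edgeR). The nerve-derived form of agrin is made by motor neurons, whose nuclei lie outside the muscle, and gene-level counts do not separate it from the forms made by muscle and vessels.

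**Figure D4:**
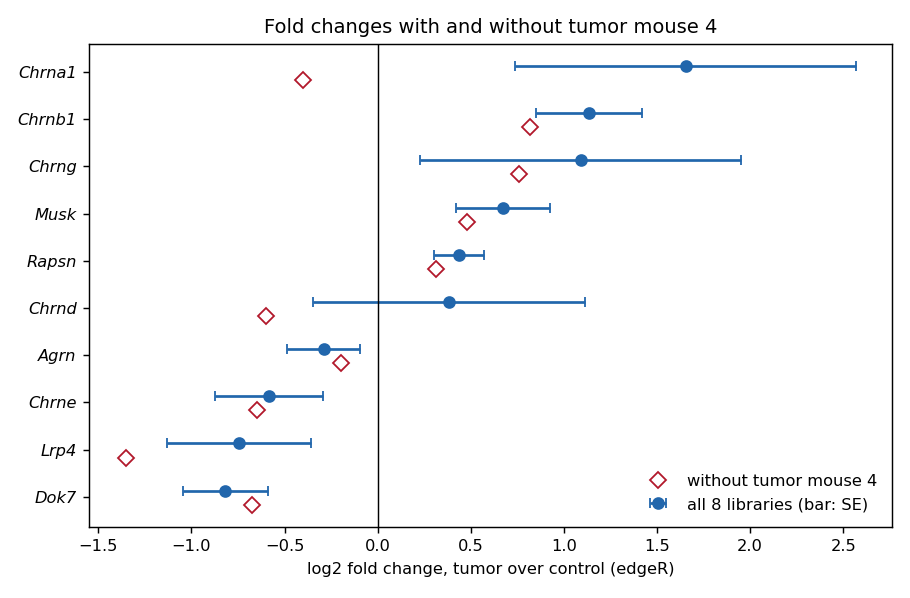
The edgeR log2 fold change of each member, tumor over control, with all 8 libraries (blue circles, bar is the SE) and without tumor mouse 4 (open red diamonds). Without that mouse Chrna1 and Chrnd lie below 0, at -0.40 and -0.60, and Lrp4 lies at -1.35, while Chrnb1, Rapsn, Musk and Dok7 keep their sign.

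Tumor mouse 4 held the highest value of 7 of the 10 members (Chrna1, Chrnb1, Chrnd, Chrng, Musk, Rapsn and Lrp4), and 18.6% of all tested genes had their highest value there. It stood 4.82-fold above the median of the other tumor mice for Chrnd and 3.18-fold for Lrp4, ratios that 0.818% and 1.89% of the tested genes reached. The ratio was 1.86 for Chrnb1, 1.48 for Musk and 1.34 for Rapsn, and it was 0.979 for Chrne, 0.808 for Agrn and 0.543 for Dok7. The members thus did not shift by a common factor in this mouse. Its summed fibre marker level, 98299.7 CPM, was the lowest of the 8 libraries. Its summed Schwann cell marker level was 27.9 CPM, within the 20.2 to 60.1 CPM of the tumor group and the 24.9 to 61.8 CPM of the controls. The 10 Schwann cell markers were all detected, and of 8 tested 0 passed in edgeR, with 0 at an unadjusted p under 0.05, and 0 in DESeq2 and limma-voom. Their median log2 fold change was -0.53. Without tumor mouse 2, 1 Schwann cell marker (Pmp22) was lower and 4 were at an unadjusted p under 0.05, and without control mouse 4 and tumor mouse 2 these counts were 1 (Pmp22) and 2. Satellite cell markers summed to 7.76 to 12.0 CPM in tumor mice and 11.3 to 13.3 CPM in controls, and 1 of 5 tested fell, beside 8.73% of all tested genes. That marker was Vcam1 (adjusted p = 0.0421, edgeR), and with 1 library left out it was called only without tumor mouse 2. It was also not called with no count filter, the replicate block, the Myh4 covariate, or without control mouse 4 and tumor mouse 2. Endothelial and mural cell markers summed to 170 to 357 CPM in tumor mice and 292 to 515 CPM in controls, with 4 of 8 lower, beside 8.73% of all tested genes. The count of lower ones was 2 without tumor mouse 3 and 2 without control mouse 1. Their part in the level of Agrn was not tested. The squamous markers Krt5, Krt14, Krt6a, Krt15, Krt17 and Dsg3 were at 0 counts in all 8 libraries. Of 3 squamous markers tested, Trp63 rose, at 15.7 to 36.2 CPM in tumor mice and 6.27 to 9.40 CPM in controls (3.01-fold, adjusted p = 0.00484, edgeR). Sfn lay at 1.07 to 3.65 CPM in tumor mice and 1.11 to 1.26 CPM in controls (adjusted p = 0.132, edgeR), and Perp at 0.395 to 1.92 CPM in tumor mice and 0.254 to 1.15 CPM in controls (adjusted p = 0.571, edgeR). Des, Acta1, Pmp22, Vcam1, Trp63, Sfn and Perp were singled out from their marker lists after their values were seen.

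Compared per length, the members spanned a wide range of levels. The length joined the exons of all annotated transcripts of a gene, whether or not muscle uses them, so the order of genes depends on it. Divided by merged exon length, the level was highest for Rapsn in controls (13.3 ± 1.07 CPM per kb, SD, n = 4), followed by Chrnb1 (8.75 ± 0.61), Musk (5.13 ± 1.31), Chrne (4.71 ± 0.99) and Dok7 (3.20 ± 0.52). Chrna1 (2.79 ± 1.81 CPM per kb), Lrp4 (1.59 ± 0.33), Agrn (1.29 ± 0.23), Chrnd (0.953 ± 0.591) and Chrng (0.0686 ± 0.0971) followed. The ranges of Musk and Chrne overlapped, as did those of each neighbouring pair from Dok7 down to Chrnd, so the ranges of these pairs do not separate them. Within libraries, Chrna1 was above Lrp4 in 4 of 4 controls, Musk above Chrne, Dok7 above Chrna1 and Lrp4 above Agrn in 3 of 4, and Agrn above Chrnd in 2 of 4. In tumor mice the mean per-length level was 19.2 ± 8.68 CPM per kb for Chrnb1 and 18.0 ± 3.01 for Rapsn, with overlapping ranges and Chrnb1 above Rapsn in 2 of 4 libraries, whereas in controls these 2 did not overlap. Chrna1 reached 28.7 CPM per kb in tumor mouse 4 and 1.95 CPM per kb in the lowest tumor mouse.

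Among other genes of the junction most did not pass. The share called with both directions pooled was near that of all genes, but most of the calls were falls. Of 34 such genes, 32 were tested, of which 1 rose and 7 fell (25.0% called, beside 19.8% of all tested genes, 11.0% higher and 8.73% lower), with a median log2 fold change of -0.23, against 0.00 over all tested genes. Ache encodes acetylcholinesterase, the enzyme that ends transmission by hydrolysing acetylcholine. Ache lay at 12.1, 8.05, 4.95 and 15.0 CPM in tumor mice 1 to 4, against 23.8, 36.5, 24.2 and 19.2 CPM in control mice 1 to 4. All tumor values lay below all controls, and Ache fell 2.58-fold (log2 fold change -1.37 ± 0.33, SE, adjusted p = 0.0198, edgeR). Etv4, an ETS factor of the family that includes Etv5, a regulator of junction genes, fell to 0.386 to 0.890 CPM in tumor mice, against 1.24 to 2.86 CPM in controls (log2 fold change -1.66 ± 0.37, adjusted p = 0.0156, edgeR). Lama4, a laminin chain of the synaptic basal lamina and of vessels, fell to 4.53 to 7.76 CPM in tumor mice, against 9.35 to 17.1 CPM in controls (log2 fold change -1.17 ± 0.24, adjusted p = 0.0114, edgeR). Lama5, another laminin chain, rose to 33.3 to 44.6 CPM in tumor mice, against 23.0 to 28.9 CPM in controls (log2 fold change 0.63 ± 0.12, adjusted p = 0.00994, edgeR). Ufsp1 fell to 3.96 to 6.43 CPM in tumor mice, against 8.12 to 17.5 CPM in controls (log2 fold change -1.19 ± 0.26, adjusted p = 0.0148, edgeR).

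The count of 7 lower junction genes was 3 without tumor mouse 3, 4 without control mouse 1, 2 without control mouse 2 and 4 without control mouse 4. Ache was not called without control mouse 1 (adjusted p = 0.0511) or control mouse 2 (adjusted p = 0.0578), Etv4 without control mouse 2 (adjusted p = 0.0515) and Ufsp1 without tumor mouse 3 (adjusted p = 0.0548). Colq, the collagen tail that anchors acetylcholinesterase, was chosen after its values were seen: it lay at 5.20, 3.86, 2.25 and 9.33 CPM in tumor mice 1 to 4, against 7.31, 8.87, 5.41 and 17.7 CPM in control mice 1 to 4, and did not pass (adjusted p = 0.186, edgeR). Of 5 glycosylation genes whose loss gives a myasthenic syndrome, all were tested and 0 passed in edgeR, with 2 at an unadjusted p under 0.05, and 0 in DESeq2 and limma-voom. Their median log2 fold change was -0.40. The smallest p-values there were those of Alg2 (log2 fold change -0.42 ± 0.18, unadjusted p = 0.0418, adjusted p = 0.127, edgeR) and Gmppb (-0.68 ± 0.29, unadjusted p = 0.0448, adjusted p = 0.132, edgeR). Alg2 and Gmppb encode enzymes of sugar donor and glycan synthesis, and Gmppb overlaps Rnf123, which had 3197 to 5277 counts, on the opposite strand.

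Genes that respond to denervation or regulate that response moved in both directions. The list mixes genes that denervation induces with regulators such as the repressor gene Hdac9. Its split by direction and its median therefore do not give a direction of the response. Of 15, 13 were tested, and 2 rose and 3 fell (38.5% called, beside 19.8% of all tested genes, 11.0% higher and 8.73% lower), with a median log2 fold change of 0.37. Gadd45a, a stress gene that denervation induces in muscle, lay at 47.1, 67.0, 66.7 and 60.5 CPM in tumor mice 1 to 4, against 11.2, 13.4, 20.2 and 22.4 CPM in control mice 1 to 4. All tumor values lay well above all controls (log2 fold change 1.84 ± 0.23, adjusted p = 0.00294, edgeR). Runx1, a transcription factor that protects denervated muscle from wasting, lay at 5.04, 5.78, 13.7 and 27.4 CPM in tumor mice 1 to 4, against 4.84, 2.55, 2.43 and 5.22 CPM in control mice 1 to 4. Runx1 was again highest in tumor mouse 4, and its groups overlapped slightly. It rose 3.46-fold (log2 fold change 1.79 ± 0.54, adjusted p = 0.0436, edgeR), and 2.16-fold without tumor mouse 4, where the call was lost (adjusted p = 0.0967). Without any other single library the adjusted p of Runx1 was 0.0239 to 0.111, and its call was also lost without tumor mouse 3 or any 1 of the 4 controls. It was lost as well with upper-quartile factors (adjusted p = 0.0502), limma-voom (adjusted p = 0.0948) and the replicate block (adjusted p = 0.0528).

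Myod1, a myogenic factor that binds E-boxes, fell to 7.52 to 14.2 CPM in tumor mice, against 19.2 to 34.6 CPM in controls (log2 fold change -1.43 ± 0.24, adjusted p = 0.00528, edgeR). Fgfbp1, a muscle-secreted binding protein of fibroblast growth factors that supports junctions in mice, fell to 0.546 to 1.91 CPM in tumor mice, against 4.28 to 5.56 CPM in controls (log2 fold change -1.86 ± 0.34, adjusted p = 0.00767, edgeR). Hdac9, a histone deacetylase that represses receptor genes in innervated muscle, fell to 1.69 to 3.96 CPM in tumor mice, against 4.04 to 7.97 CPM in controls (log2 fold change -1.28 ± 0.30, adjusted p = 0.0197, edgeR), and was not called without tumor mouse 3 (adjusted p = 0.0643) or control mouse 2 (adjusted p = 0.0513). Myog encodes myogenin, which denervation induces and which binds receptor promoters, and Ncam1 encodes an adhesion molecule that spreads over denervated fibres. Both were chosen after their values were seen. Myog lay at 1.65, 2.40, 3.66 and 17.6 CPM in tumor mice 1 to 4, against 5.53, 3.44, 3.01 and 2.57 CPM in control mice 1 to 4. Ncam1 lay at 5.10, 6.95, 3.31 and 16.2 CPM in tumor mice 1 to 4, against 5.08, 6.95, 3.85 and 8.66 CPM in control mice 1 to 4. Tumor mouse 4, with the highest Chrna1, was therefore also the highest for Myog, Ncam1 and Runx1, while the other tumor mice lay within or below the control range for Myog and Ncam1. Neither passed over all libraries (adjusted p = 0.432 for Myog and 0.603 for Ncam1, edgeR). Of the 13 tested genes of the denervation list, 4 had their highest value in tumor mouse 4, beside 18.6% of all tested genes. The ratio of this mouse to the median of the other tumor mice reached 7.34, for Myog. It was below 1 for Dach2 (0.159), Myh3 (0.198), Myh8 (0.546), Hdac5 (0.835) and Gadd45a (0.908), and above 1 for the remaining tested genes of the list.

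**Figure D5:**
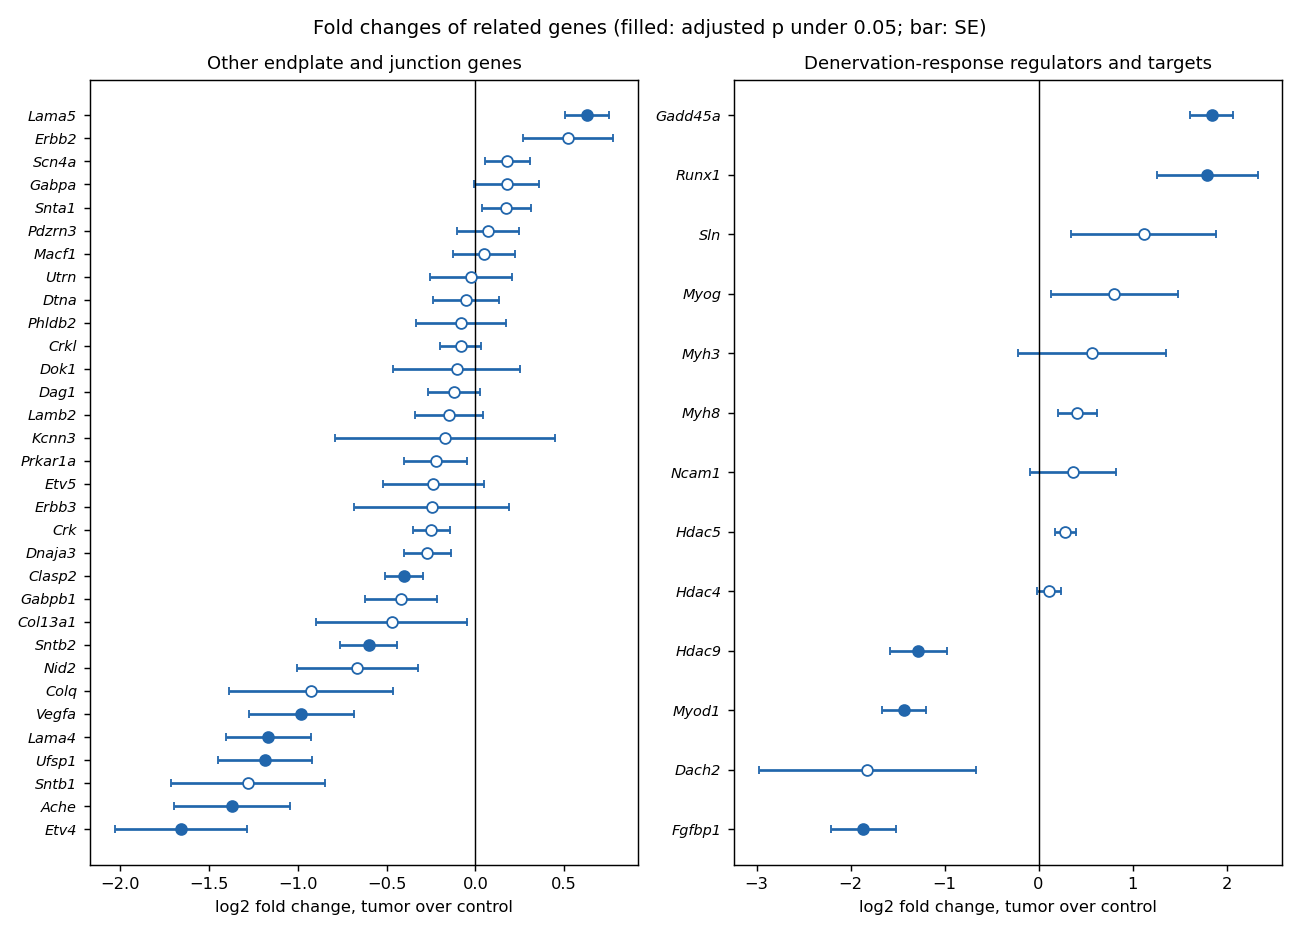
The edgeR log2 fold changes, tumor over control, of the 32 tested junction genes outside the 10 members (left) and of the 13 tested genes of the denervation response (right). Bars are SEs and filled circles passed an adjusted p under 0.05. On the left 1 filled circle lies above 0 and 7 below, and on the right 2 lie above and 3 below.

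By their pattern over the 8 libraries, the genes closest to Chrnb1 were Zdhhc18, Cfap36 and Rps20, with a root mean square difference of centred log2 CPM of 0.160, 0.164 and 0.171. The closest other member was Rapsn at 0.433. For Dok7 the closest were Pxdn (0.117), Zfp423 (0.121) and Tmem260 (0.141), and the closest other member was Chrne at 0.417. The closest genes were picked from all tested genes outside the members, and the closest member from the few other members. Their distances are therefore not comparable and do not show whether the members track one another. Reads of the ribosomal protein gene Rps20 can be shared with its processed pseudogenes, so its value is uncertain.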

How the data were processed

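Messenger RNA libraries from 8 quadriceps muscles (4 tumor, 4 control) were sequenced, and groups and columns were taken from the sample labels. The authors deposited estimated counts per gene symbol, of which 9.00% were not whole numbers. Build GRCm39, STAR 2.7.9a, Salmon 1.10.1, cutadapt 3.4, Trim Galore 0.6.7 and R 4.2.2 are named in the submitters' processing notes. The labels do not state the annotation or the strand setting. Reads of overlapping genes may therefore be shared.

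Deposited counts were rounded. The edgeR function filterByExpr (minimum count 10) kept 14070 genes, which were TMM-scaled and tested with the quasi-likelihood test (edgeR 4.0.16, R 4.3.3, two-sided, group as the only term, Benjamini-Hochberg). Each SE was derived from the log2 fold change and the F statistic. DESeq2 1.42.0 and limma 3.58.1 were alternatives. The steps were tested on simulated data. Members and gene lists were chosen with earlier results of these data known. Of each list, up to 4 called genes per direction were named by p, or 2 where none passed. Similar genes were named for the 2 called members with the largest change. Promoters are from RefSeq, and exon lengths and overlaps from GENCODE M21, both of build GRCm38, so only promoters are given coordinates, in that build. No pair of libraries within a group was alike within counting error, and all 8 were kept. No batch is named in the labels. Alternatives were other scalings, count filters and tests, the replicate block, a Myh4 covariate and leaving out libraries.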

Additional observations from a re-analysis of the deposited data

Results flagged for a closer look

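Chrna1 in tumor mouse 4 (126 CPM) stood far from the other 3 tumor mice, which lay between 8.54 and 10.3 CPM. Chrng in control mouse 1 (0.592 CPM, from 17 counts) stood far from the other controls, which lay between 0.0289 and 0.109 CPM. Chrna2, a neuronal receptor subunit gene named by the same rule, lay at 4.41 CPM in tumor mouse 2 and between 0 and 0.193 CPM in the other tumor mice. Each value's gap to the nearest library exceeded Dixon's 95% critical value for its group. This held for 3 of 50 groups of 4 values, and chance alone gives about 1 group in 20.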

How the results depend on the processing

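The 2 higher members became 1 with DESeq2 size factors, upper-quartile factors, no count filter, the strict count filter, limma-voom, the Myh4 ratio as a covariate or the replicate block, since Rapsn was lost each time, and Chrnb1 and Dok7 were called in all of these. With 1 library left out, the higher members numbered 0 to 2 and the lower members 0 to 2, while all called genes numbered 1110 to 2845, with 630 to 1551 higher and 480 to 1450 lower. The replicate block left 1014 genes higher. Same-numbered tumor and control mice correlated at 0.0281, 0.131, 0.197 and 0.0158 over 14070 genes, and 2 of the 4 tumor libraries correlated best with their own number, so the numbers were not taken to pair the mice. Without tumor mouse 4 the log2 fold change turned to -0.40 for Chrna1 and -0.60 for Chrnd; for Chrna2 (-0.91 with all libraries) it turned to 0.12 with the Myh4 covariate and 0.74 without control mouse 4. Without control mouse 4 and tumor mouse 2 it was 2.51 for Chrna1 and 0.86 for Chrnd, and 2922 genes were called in all; for Chrna2 it was -4.85 without tumor mouse 2. The cause was not tested. The difference in the Chrng to Chrne ratio ran from 1.86 to 3.22 with 1 library left out, and exact permutation p from 0.0286 to 0.171; with 5 added to each count it was 1.49 (exact permutation p = 0.0857). DESeq2 gave no adjusted p for Chrna1, Chrng and Chrnb2. Counts of other lists under each setting were added after seeing the data. Depth limits Chrng, whose lowest libraries held 1 count.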

Other observations

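Neuronal receptor subunit genes had few counts in this muscle. Of 11, Chrna3, Chrna6 and Chrnb4 had 0 counts in all 8 libraries, and 2 were deep enough to be tested, with 0 called by edgeR, 0 at an unadjusted p under 0.05, and 0 called by DESeq2 or limma-voom. Other settings gave calls: Chrna9, not tested with all libraries, was higher with no count filter (1 of 8 tested), without control mouse 4 and tumor mouse 2 (1 of 1), and without tumor mouse 2, where Chrna4 was lower (2 of 4 called in all). Chrna9 held 13, 0, 71 and 68 counts in tumor mice 1 to 4 and 1, 7, 0 and 0 counts in control mice 1 to 4, so the groups overlapped. Chrna9 and Chrna4 were named after their values were seen. Chrnb2 held 16, 14, 10 and 9 counts in tumor mice 1 to 4 and 5, 11, 3 and 0 counts in control mice 1 to 4, with an adjusted p of 0.250 (edgeR). It overlaps Adar on the opposite strand, which had 58 to 129 counts. Chrna2 held 0, 136, 6 and 1 counts in tumor mice 1 to 4 and 43, 18, 0 and 183 counts in control mice 1 to 4 (adjusted p = 0.718, edgeR). Its 2 highest libraries, tumor mouse 2 and control mouse 4, were those with the lowest Myh4 share of adult myosin heavy chain counts, 80.3% and 64.6%. The 4 libraries with under 10 counts of Chrna2 had Myh4 shares of 95.2% to 98.9%.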
